A study of Mus musculus with 15 samples.

Results

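The proteasome genes of mouse germinal centre B cells and germinal centre plasmablasts were followed over 5 sorted populations. Members were the rows whose symbol starts with Psma, Psmb, Psmc, Psmd, Psme, Psmf or Psmg and a digit, with a value above 0 in at least 3 of the 15 libraries. Of 23420 genes in the deposited table, 49 had such a symbol and 48 met the rule, and Psma8 was above 0 in too few libraries. Of the 48, 47 have a role in or on the proteasome, while Psmc3ip, a meiotic recombination factor, matched by symbol alone. The 5 genes of the immunoproteasome and its activator (Psmb8, Psmb9, Psmb10, Psme1 and Psme2) were also described apart.

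B cells with the B1-8hi (KI/+) antigen receptor were transferred into C57BL6 hosts, which were immunized with NP-CGG in CFA, and 100 CD45.1+ donor cells per library were sorted from draining lymph nodes on day 12. GC-PB were CD138hi CD44hi tdTomato+ plasmablasts from donor cells that carried S1pr2-ERT2cre Tg and ROSA-Ai14 (KI/+), in hosts given tamoxifen on days 6, 7 and 8, so they hold descendants of cells in which the S1pr2-driven Cre was active at that time. The germinal centre B cells (B220+ CD38lo GL7hi) came from donors with Bcl6-YFP (KI/+) and no stated tamoxifen. They were Fraction 1 (CXCR4lo CD86hi, CD69hi, Bcl6lo), Fraction 2 (the same gate, CD69hi, Bcl6hi), Fraction 3 (the same gate, CD69lo, Bcl6hi) and DZ (CXCR4hi CD86lo), with 3 libraries each. Replicates were prepared as separate libraries, and no label says that they came from separate animals, so p-values measure a spread that may be technical. All donor cells share the knock-in receptor, and every library is a pool of cells.

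The proteasome degrades ubiquitin-tagged proteins. Its 20S core is a stack of alpha and beta rings, and the beta rings hold the catalytic sites; the 19S particle, made of a base with ATPases and a lid, binds and unfolds the substrate. Immune cells also build an immunoproteasome, in which Psmb8, Psmb9 and Psmb10 take the places of the catalytic subunits Psmb5, Psmb6 and Psmb7 and alter the peptides made for MHC class I. The core can instead bind activators, which are the Psme1 and Psme2 ring, the nuclear Psme3 ring and Psme4, and dedicated chaperones assemble both particles. Plasma cells make large amounts of secretory antibody, and proteasome function is a known point of sensitivity in them.

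Values are given at equal library totals, with each library scaled to a total of 38594 without the ribosomal precursor Rn45s, and 1 molecule was worth 0.108 to 0.233 on this scale. The deposited totals ran from 27942 to 115088, and divided by the constant of each library they stand for 165747 to 359076 molecules. Totals as deposited were higher in GC-PB and Fraction 1 than in the other groups, and the same 6 libraries had the larger constants. Those 6 libraries also carried Xist (8.94 to 14.4), which was listed at 0 in the other 9, and Ddx3y was at most 0.041 in them and at least 3.91 in the other 9. Fraction 1 against Fraction 2 crosses this divide with all its libraries, so the divide and the fraction cannot be told apart there. The summed plasmablast markers were 1956 to 2596 in GC-PB and at most 74.4 elsewhere, and the summed germinal centre markers were 0.62 to 0.931 in GC-PB, 8.59 to 15.4 in Fraction 1 and 37.9 to 60.8 in Fraction 2, Fraction 3 and DZ. Of the markers of other cells, Cd3e, Cd4, Itgam, Fcgr1, Col1a1, Pdpn and Ccl19 were at 0 in all libraries. The summed T cell markers, of which 1 of 7 (Cd2) was above 0 in enough libraries to test, were 0.394 to 1.45 in GC-PB, 0.118 to 1.07 in Fraction 1, 1.53 to 1.69 in Fraction 2, 1.74 to 2.98 in Fraction 3 and 3.45 to 4.64 in DZ, and Cd2 was called lower in Fraction 1 against Fraction 2 (-0.79) and in Fraction 2 against DZ (-0.99). The summed dendritic cell markers (3 of 4 tested) were 2.69 to 3.39 in GC-PB, 1.45 to 1.82 in Fraction 1 and 2.17 to 4.43 elsewhere. Xcr1 was called higher (1.36) and Zbtb46 lower (-0.24) in GC-PB against Fraction 1, and Flt3 lower in Fraction 1 against Fraction 2 (-0.72). The summed macrophage and stromal markers were at most 0.876 and 1.27, with Cd68 and Pecam1 the tested ones, which were not called. The part of these markers in the results was not tested. In pooled cells, fewer cells of a type and less RNA per cell cannot be told apart.

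The stretches of 250 bases before the RefSeq start (GRCm38.p6) are shown for an immunoproteasome subunit and its constitutive counterpart, whose ratio is followed below (Psmb8 and Psmb5), for Psmb9, whose stretch overlaps that of Tap1, and for the activators that took opposite directions in plasmablasts (Psme3 and Psme4). Capitals mark a CCAAT box (in either strand, so ATTGG where it is reversed) or the core of an antioxidant response element (TGACNNNGC), and a stretch without capitals held none of the searched motifs. The Psmb8 window is at chr17:34197945-34198194 on the plus strand, Psmb9 at chr17:34187331-34187580 on the minus strand, Psmb5 at chr14:54617996-54618245 on the minus strand, Psme3 at chr11:101315963-101316212 and Psme4 at chr11:30771525-30771774 on the plus strand. The RefSeq starts of Psmb8, Psmb9 and Psme4 lie inside the gene spans given with their values, so these windows cover bases within those spans. The same holds for Psmb5, whose gene spans chr14:54614119-54618022.
Psmb8: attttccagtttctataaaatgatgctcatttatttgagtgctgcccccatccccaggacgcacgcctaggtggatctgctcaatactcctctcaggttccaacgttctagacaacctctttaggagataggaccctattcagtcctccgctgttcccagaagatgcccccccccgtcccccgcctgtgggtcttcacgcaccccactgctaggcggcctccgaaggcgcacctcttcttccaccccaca
Psmb9: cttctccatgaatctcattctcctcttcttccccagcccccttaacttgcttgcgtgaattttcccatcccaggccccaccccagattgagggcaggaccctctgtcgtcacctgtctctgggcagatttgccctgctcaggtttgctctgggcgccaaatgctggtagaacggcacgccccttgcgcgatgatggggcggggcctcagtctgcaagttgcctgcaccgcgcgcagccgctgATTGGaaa
Psmb5: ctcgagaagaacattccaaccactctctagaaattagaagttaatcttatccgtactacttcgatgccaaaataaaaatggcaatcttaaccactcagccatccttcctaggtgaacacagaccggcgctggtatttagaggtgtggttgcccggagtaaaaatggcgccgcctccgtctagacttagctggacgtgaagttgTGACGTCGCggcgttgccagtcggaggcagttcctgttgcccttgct
Psme3: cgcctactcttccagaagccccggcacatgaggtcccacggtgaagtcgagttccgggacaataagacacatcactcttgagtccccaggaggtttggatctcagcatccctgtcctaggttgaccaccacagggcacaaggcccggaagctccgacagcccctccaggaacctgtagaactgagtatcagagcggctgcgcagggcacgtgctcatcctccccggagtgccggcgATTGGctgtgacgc
Psme4: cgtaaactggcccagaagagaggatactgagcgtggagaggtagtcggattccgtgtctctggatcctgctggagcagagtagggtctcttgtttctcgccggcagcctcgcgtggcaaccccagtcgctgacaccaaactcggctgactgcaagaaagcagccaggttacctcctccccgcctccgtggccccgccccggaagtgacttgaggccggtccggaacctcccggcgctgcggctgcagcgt

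RefSeq held such a stretch for 41 of the 48 members. CCAAT was found on either strand in 15 of them (36.6%), against 37.5% of 27025 genes. TGACNNNGC was found in 5 of them, which were Psmb5, Psmb6, Psmc6, Psmd12 and Psmd9 (12.2%, against 11.5% of all). GAAANNGAAA, the core of an interferon response element, was found in Psmb3, Psmd4 and Psmd9 (7.32%, against 3.46% of all). A match describes letters only. The stretches of Psmb9 and Tap1, a peptide transporter for MHC class I on the other strand, overlap over most of their length. Psmb8 starts 10 kb from Psmb9, and the ends of Psme1 and Psme2 on chromosome 14 lie 5.9 kb apart.

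Proteasome transcripts took their largest share of the library in Fraction 1. The 48 members together held 0.802%, 0.920% and 0.862% of the total in the GC-PB libraries, 1.17%, 1.11% and 1.16% in Fraction 1, 0.907%, 0.943% and 0.946% in Fraction 2, 0.834%, 0.799% and 0.826% in Fraction 3, and 0.884%, 0.831% and 0.830% in DZ. Every Fraction 1 library lay above every other library, and the GC-PB libraries overlapped with the remaining groups. The standard 20S core held 0.374% ± 0.024 in GC-PB (SD, n = 3 each), 0.502% ± 0.014 in Fraction 1, 0.390% ± 0.011 in Fraction 2, 0.343% ± 0.011 in Fraction 3 and 0.368% ± 0.023 in DZ, with Fraction 1 above all others. Psmb8, Psmb9 and Psmb10, the catalytic subunits of the immunoproteasome, together held 0.129% ± 0.0077 in GC-PB, 0.116% ± 0.006 in Fraction 1, 0.124% ± 0.0025 in Fraction 2, 0.120% ± 0.0078 in Fraction 3 and 0.109% ± 0.0045 in DZ, and the Fraction 1 libraries overlapped there with every other group. Of the 48 members, 33 had their highest group mean in Fraction 1, while 16 had their lowest in GC-PB and 19 in Fraction 3. The same counts were not made over all tested genes, so these describe the members without a background.

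**Figure D1:**
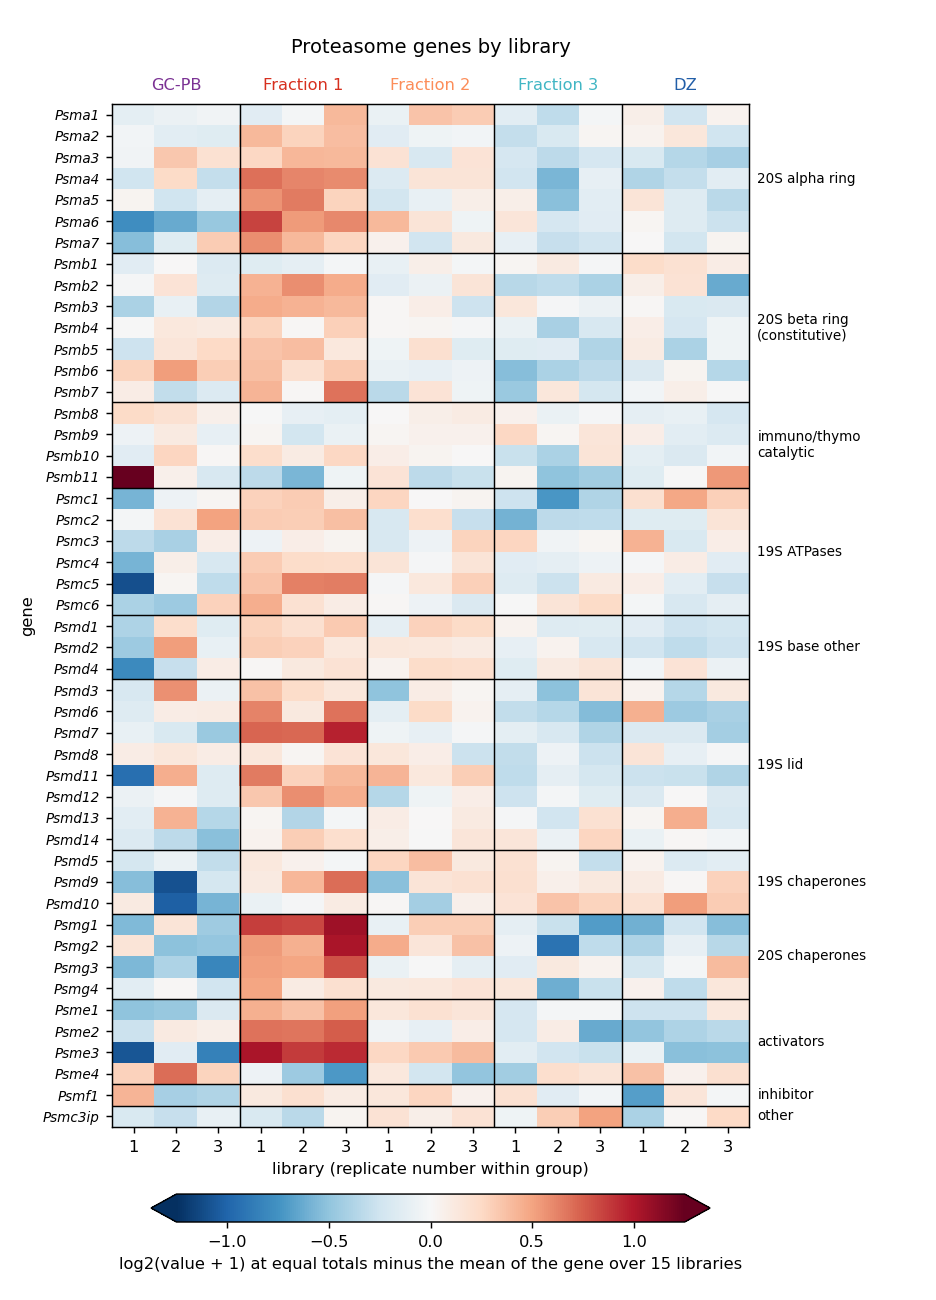
Each row is 1 of the 48 members, ordered by role, and each column 1 library, ordered by group. Colour gives log2(value + 1) at equal totals minus the mean of that gene over the 15 libraries. Most rows are red in the Fraction 1 columns, where 33 of the 48 members have their highest group mean, a count not made over all tested genes.

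In GC-PB against Fraction 1, 8 of the 14 standard core subunits, 7 of the 17 subunits of the 19S particle, 3 of the 4 core chaperones, Psme1, Psme2 and Psme3 were called lower. Psme4 was called higher, as was Psmb8 by a small margin, and Psmb9 and Psmb10 were not called. A linear model over all 11190 tested genes (limma, with Benjamini-Hochberg adjustment and a threshold of 0.05) called 2 of 48 members higher, against 14.1% of all tested genes, and 22 lower, against 22.3%. Among the 5509 genes with a mean of at least 1, where 47 of the members lie, 18% were called higher and 39.5% lower, with 2 members higher and 24 lower. The 22 lower members are 45.8% of the 48. The median log2 fold change was -0.43 over members and -0.06 over all tested genes. Among genes with a mean of at least 1, it was -0.44 over the 47 members and -0.28 over all. The libraries did not overlap for 2 members above (16.1% of all tested genes) and 22 below (26.7%). With the libraries scaled by median ratios, 6 members were called higher (Psmb1, Psmb6, Psmb9 and Psmb11 in addition) and 12 lower. As deposited, 0 were higher and 44 lower, on a scale that moves the median of all genes by -0.42. Plasmablast markers and a lower yield of molecules (165747 to 195906 in GC-PB, 313489 to 359076 in Fraction 1) moved with this comparison, and their part in it was not tested. Donor genotype and the stated tamoxifen also differed between all GC-PB and all Fraction 1 libraries, so they and cell type cannot be told apart.

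In Fraction 1 against Fraction 2, 4 of the 7 alpha-ring subunits, Psmb3, the lid subunits Psmd7 and Psmd12, Psme2, Psme3 and 2 of the 4 core chaperones were called higher, and no member was called lower. limma called 11 of 48 members higher, against 3.79% of all tested genes, and 0 lower, against 5.25%, with 0 lower at an unadjusted p under 0.05 and 0 lower with voom weights. Among genes with a mean of at least 1, 8.5% were called higher and 12.6% lower, with 13 of the 47 members higher. The median log2 fold change was 0.29 over members and -0.04 over all tested genes. The libraries did not overlap for 22 members above (11.9% of all tested genes) and 3 below (16.3%). The 11 calls were also made with median ratios (14 higher, 0 lower) and as deposited (46 higher, 0 lower), where the median of all genes moved by 0.64. The count rested on all 6 libraries. It was 3 without Fraction 1 replicate 1, 2 without replicate 2 and 4 without replicate 3, and 4 without Fraction 2 replicate 1, 5 without replicate 2 and 5 without replicate 3. This comparison shares its Fraction 1 libraries with that of GC-PB.

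Fraction 2, Fraction 3 and DZ differed less from each other. In Fraction 2 against Fraction 3, limma called 0 members higher (0.438% of all tested genes) and 0 lower (0.25%), 10 had an unadjusted p under 0.05, all higher, and voom weights also gave 0 calls. The libraries of 15 members lay above without overlap (8.59% of all tested genes) and those of 1 below (8.38%), and the median log2 fold change was 0.20, against 0.00 over all genes. In Fraction 2 against DZ, limma called 1 member higher, Psme3 (1.66% of all tested genes), and 0 lower (1.84%), with 0 lower at an unadjusted p under 0.05 and 0 lower with voom weights. The libraries did not overlap for 12 members above (10.3%) and 2 below (10.1%), with a median of 0.12 over members and 0.01 over all genes. In Fraction 3 against DZ, limma called 1 member lower, Psmc1 (0.483% of all tested genes), and 0 higher (0.572%), with 0 higher at an unadjusted p under 0.05 and 0 higher with voom weights. There the libraries did not overlap for 3 members above (7.87%) and 2 below (6.43%), and the median was -0.04.

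**Figure D2:**
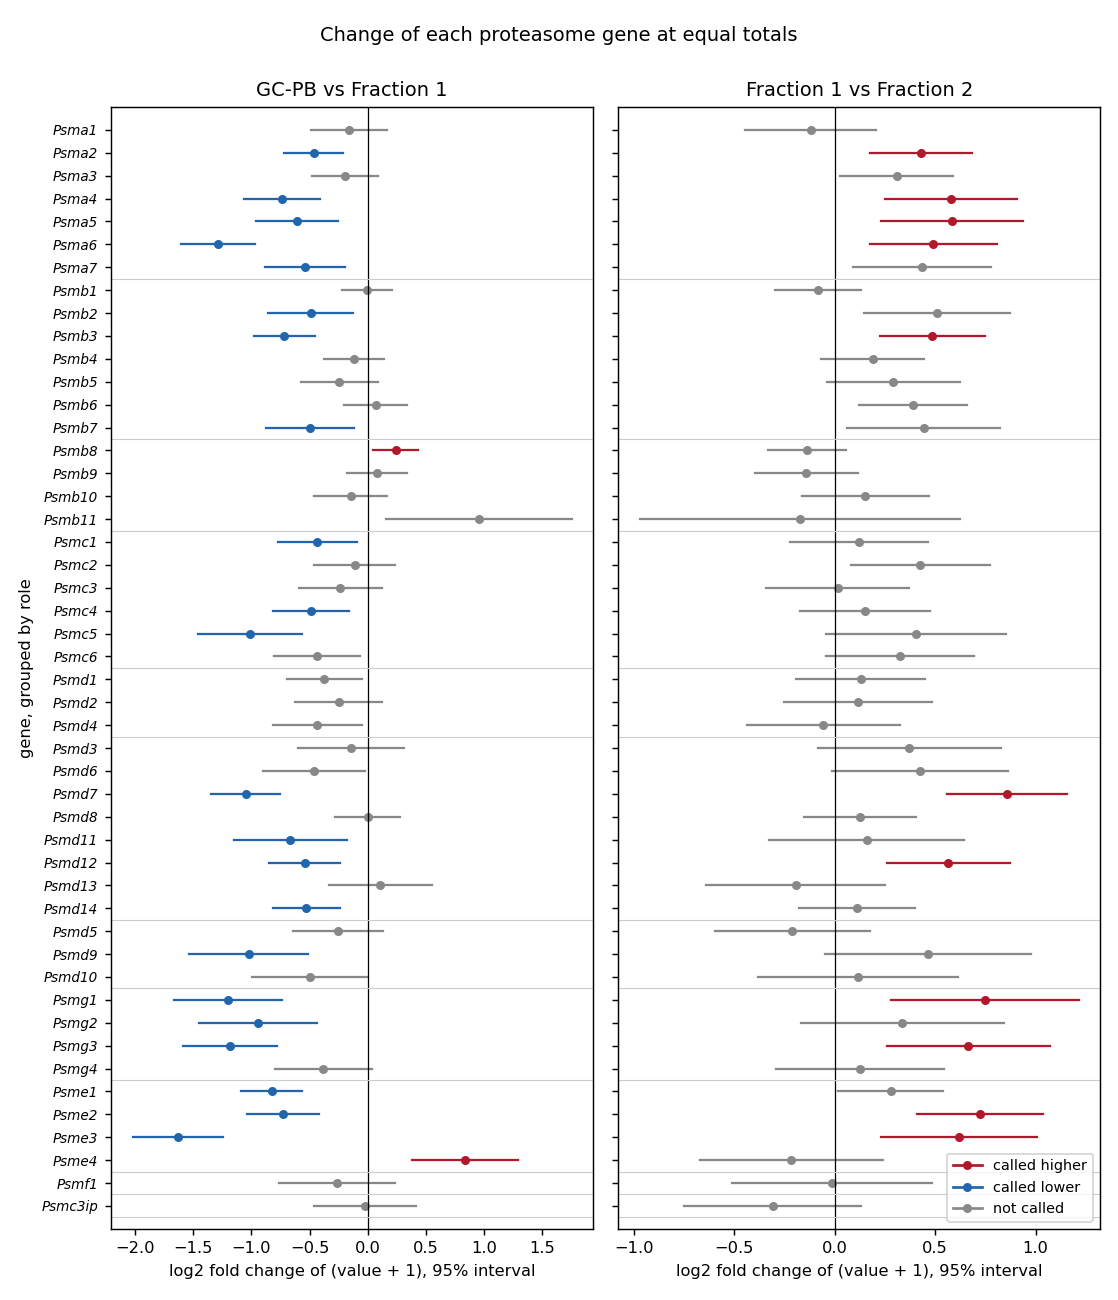
Log2 fold changes at equal totals (points) with their 95% intervals (bars) for the 48 members, ordered by role, in GC-PB against Fraction 1 and in Fraction 1 against Fraction 2. Red points were called higher and blue points lower by limma, grey points were not called, and Psme3 at -1.63 is the lowest point in GC-PB against Fraction 1.

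Psmb8 (chr17:34197721-34201454 on mm10), the chymotrypsin-like subunit of the immunoproteasome, varied little over the groups. It was at 34.2, 33.1 and 30.4 in the GC-PB libraries, 28.8, 26.9 and 26.5 in Fraction 1, 29.0, 30.4 and 31.1 in Fraction 2, 30.1, 27.3 and 28.7 in Fraction 3, and 26.7, 27.1 and 24.8 in DZ. The GC-PB libraries lay above those of Fraction 1, Fraction 3 and DZ and overlapped with Fraction 2. Its log2 fold change in GC-PB against Fraction 1 was 0.24 ± 0.09 (SE; limma adjusted p = 0.049) at equal totals and -0.44 as deposited. That call held in only 1 of the 6 fits that left out 1 library each, the one without GC-PB replicate 3, with changes of 0.21 to 0.29 over the 6. Of 11 other settings it was kept in 3 and not in 7 others that left the change positive, among them the replicate block and voom weights (limma adjusted p = 0.0518), and as deposited the change was called lower. In Fraction 1 against Fraction 2 its change was -0.14 ± 0.09 (limma adjusted p = 0.469), with a 95% interval of -0.33 to 0.06.

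Psmb9 (chr17:34181987-34187764), which replaces Psmb6 in the immunoproteasome, was at 10.01, 11.4 and 9.71 in GC-PB, 10.7, 8.81 and 9.85 in Fraction 1, 10.7, 10.96 and 10.9 in Fraction 2, 12.7, 10.7 and 11.8 in Fraction 3, and 11.2, 9.52 and 9.26 in DZ. GC-PB and Fraction 1 overlapped, and Fraction 2 lay just above Fraction 1. Its log2 fold change was 0.08 (95% interval -0.18 to 0.33) in GC-PB against Fraction 1 and -0.14 (-0.40 to 0.11) in Fraction 1 against Fraction 2, with limma adjusted p = 0.675 and 0.595. Psmb10, the trypsin-like subunit, was at 5.82, 8.08 and 6.61 in GC-PB, 7.77, 7.09 and 8.00 in Fraction 1, 6.98, 6.69 and 6.57 in Fraction 2, 5.21, 4.73 and 7.40 in Fraction 3, and 5.93, 5.66 and 6.37 in DZ. Its GC-PB libraries overlapped with Fraction 1, and its Fraction 1 libraries lay just above Fraction 2. Its changes were -0.15 ± 0.15 in GC-PB against Fraction 1 and 0.15 ± 0.15 in Fraction 1 against Fraction 2, with limma adjusted p = 0.502 and 0.655.

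The constitutive counterparts each had their highest germinal centre mean in Fraction 1. Psmb6, the caspase-like subunit, was at 10.7, 12.8 and 10.9 in GC-PB, 11.5, 10.1 and 11.1 in Fraction 1, 8.07, 7.96 and 8.21 in Fraction 2, 5.64, 6.31 and 6.69 in Fraction 3, and 7.53, 8.83 and 6.51 in DZ. All GC-PB and Fraction 1 libraries lay above all others, but the change in Fraction 1 against Fraction 2 missed the threshold (0.39 ± 0.13, limma adjusted p = 0.0667). Xist and Ddx3y divide the libraries in the same way, so this divide and the populations cannot be told apart. Psmb5, the chymotrypsin-like counterpart of Psmb8, was at 8.15, 11.1 and 12.0 in GC-PB, 13.0, 13.3 and 10.96 in Fraction 1, 9.51, 11.6 and 8.86 in Fraction 2, 8.83, 8.94 and 7.40 in Fraction 3, and 10.7, 7.32 and 9.55 in DZ. Its Fraction 1 libraries overlapped with both GC-PB and Fraction 2, with changes of -0.25 ± 0.16 in GC-PB against Fraction 1 and 0.29 ± 0.16 in Fraction 1 against Fraction 2 (limma adjusted p = 0.251 and 0.311). Psmb7, the trypsin-like counterpart of Psmb10, was at 8.15, 5.91 and 6.61 in GC-PB, 10.5, 7.63 and 12.7 in Fraction 1, 5.78, 8.65 and 7.22 in Fraction 2, 5.21, 8.41 and 6.34 in Fraction 3, and 7.37, 8.01 and 7.52 in DZ. It fell in GC-PB against Fraction 1 (-0.50 ± 0.18, limma adjusted p = 0.0379), although Fraction 1 replicate 2 lay among the GC-PB libraries. That call did not hold when Fraction 1 replicate 1 or 3 or GC-PB replicate 2 or 3 was left out (changes of -0.68 to -0.34 over the 6 fits).

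Each immunoproteasome subunit was set against the gene it replaces, library by library, as a ratio compared between groups only. Psmb9 to Psmb6 was 0.905 ± 0.026 in GC-PB (SD, n = 3 each), 0.897 ± 0.029 in Fraction 1, 1.35 ± 0.027 in Fraction 2, 1.90 ± 0.31 in Fraction 3 and 1.33 ± 0.22 in DZ. All GC-PB and Fraction 1 libraries lay below all others. The same libraries are set apart by Xist, Ddx3y and the library constants, so that divide and the populations cannot be told apart. Psmb8 to Psmb5 was 3.24 ± 0.86 in GC-PB, 2.22 ± 0.20 in Fraction 1, 3.06 ± 0.44 in Fraction 2, 3.45 ± 0.41 in Fraction 3 and 2.93 ± 0.67 in DZ, with every Fraction 1 library below every other. Psmb10 to Psmb7 was 1.03 ± 0.33 in GC-PB, 0.767 ± 0.15 in Fraction 1, 0.964 ± 0.22 in Fraction 2, 0.910 ± 0.31 in Fraction 3 and 0.786 ± 0.072 in DZ, and its groups overlapped. These ratios do not depend on the scale of the libraries and were not tested.

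**Figure D3:**
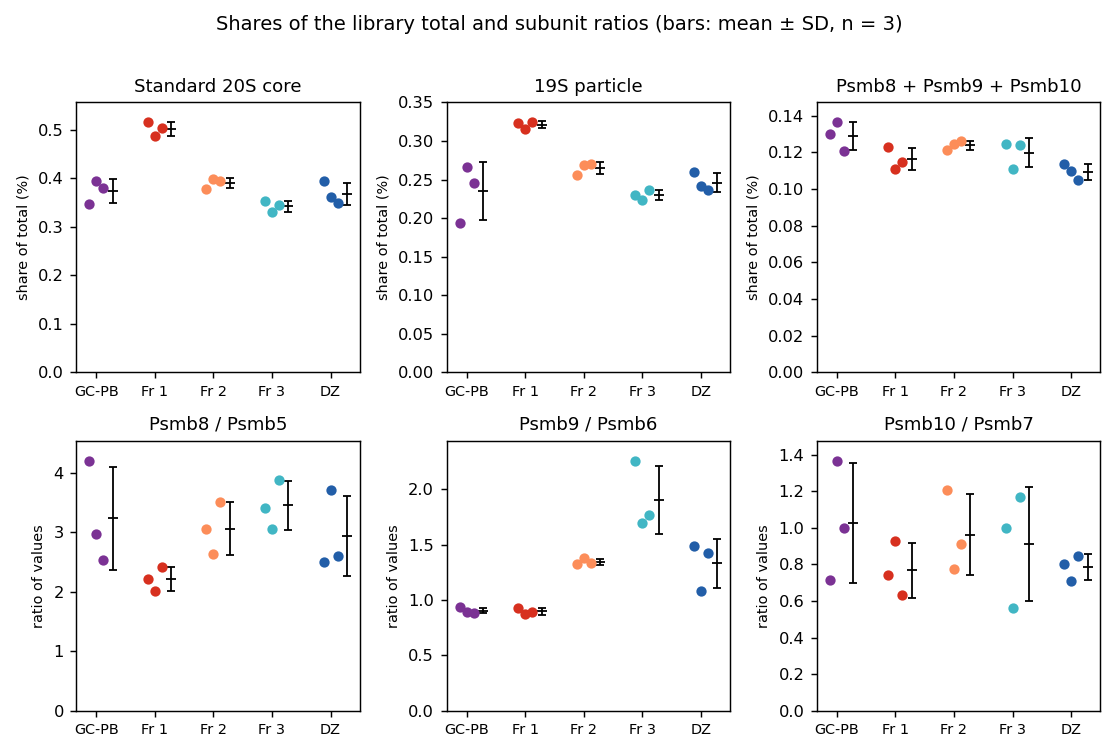
Points are single libraries and bars group means ± SD (n = 3), for shares of the library total (percent, upper row) and for ratios between genes (lower row), with groups along the horizontal axes. Fraction 1 stands highest for the standard 20S core (0.502%) and lowest for Psmb8 to Psmb5 (2.22), while the mean share of Psmb8, Psmb9 and Psmb10 ranges from 0.109% to 0.129%.

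Psme1 and Psme2 encode the ring that binds the core and is known to be induced by interferon gamma together with the immunoproteasome. Psme2 (chr14:55587441-55591113) was at 10.7, 14.2 and 13.8 in GC-PB, 21.5, 21.4 and 22.8 in Fraction 1, 12.6, 12.1 and 13.9 in Fraction 2, 11.1, 14.0 and 8.10 in Fraction 3, and 8.97, 9.80 and 10.1 in DZ. Fraction 1 stood above all other libraries without overlap. Psme2 fell in GC-PB against Fraction 1 (-0.73 ± 0.15, limma adjusted p = 0.000545) and rose in Fraction 1 against Fraction 2 (0.72 ± 0.15, limma adjusted p = 0.00374), and both calls were kept in every fit without 1 library. Psme1 (chr14:55578123-55581529) was at 11.4, 11.6 and 14.5 in GC-PB, 22.8, 21.6 and 24.0 in Fraction 1, 18.3, 19.03 and 18.5 in Fraction 2, 14.2, 16.3 and 16.2 in Fraction 3, and 13.6, 13.7 and 18.2 in DZ. Its Fraction 1 libraries were likewise the highest, and its GC-PB libraries lay below Fraction 1 and Fraction 2. It fell in GC-PB against Fraction 1 (-0.83 ± 0.13, limma adjusted p = 1.75e-05), while Fraction 1 against Fraction 2 was not called (0.28 ± 0.13, limma adjusted p = 0.197). The ratio of Psme1 to Psme2 was 0.977 ± 0.14 in GC-PB, 1.04 ± 0.027 in Fraction 1, 1.45 ± 0.12 in Fraction 2, 1.48 ± 0.46 in Fraction 3 and 1.57 ± 0.21 in DZ. Every GC-PB and Fraction 1 library lay below every other, the same division as for Xist and Ddx3y, from which the populations cannot be told apart.

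The other activators took opposite directions in plasmablasts. Psme3 (chr11:101316213-101323537), the nuclear activator that acts without ubiquitin, was at 2.33, 5.32 and 2.89 in GC-PB, 13.2, 11.8 and 12.3 in Fraction 1, 7.34, 7.73 and 8.21 in Fraction 2, 5.35, 4.91 and 4.76 in Fraction 3, and 5.61, 3.86 and 3.91 in DZ. Fraction 1 was highest and Fraction 2 next, each without overlap with any other group, and GC-PB, Fraction 3 and DZ overlapped. These values rest on 10, 27 and 14 molecules in GC-PB and 112, 110 and 100 in Fraction 1. Psme3 fell in GC-PB against Fraction 1 (-1.63 ± 0.19, limma adjusted p = 4.47e-07), the largest change among the members, and that call was kept without any 1 library. It rose in Fraction 1 against Fraction 2 (0.62 ± 0.19, limma adjusted p = 0.0423), a call lost in all 6 fits without 1 library (0.58 to 0.65), and in Fraction 2 against DZ (0.70 ± 0.19, limma adjusted p = 0.041). Against DZ the call held only without DZ replicate 1, with changes of 0.62 to 0.84 over the 6 fits. Psme4 (chr11:30771726-30880361), a large activator linked to DNA repair and acetylated histones, was at 3.73, 5.32 and 3.72 in GC-PB, 2.71, 1.83 and 1.35 in Fraction 1, 3.25, 2.31 and 1.75 in Fraction 2, 1.88, 3.50 and 3.35 in Fraction 3, and 4.004, 3.04 and 3.47 in DZ. GC-PB lay above Fraction 1 without overlap. Psme4 rose in GC-PB against Fraction 1 (0.84 ± 0.22, limma adjusted p = 0.00431), kept its call without any 1 library and lost it as deposited (0.39). The ratio of Psme3 to Psme4 was 0.801 ± 0.19 in GC-PB, 6.81 ± 2.1 in Fraction 1, 3.43 ± 1.2 in Fraction 2, 1.89 ± 0.83 in Fraction 3 and 1.27 ± 0.14 in DZ. The inhibitor Psmf1 was called in no comparison.

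**Figure D4:**
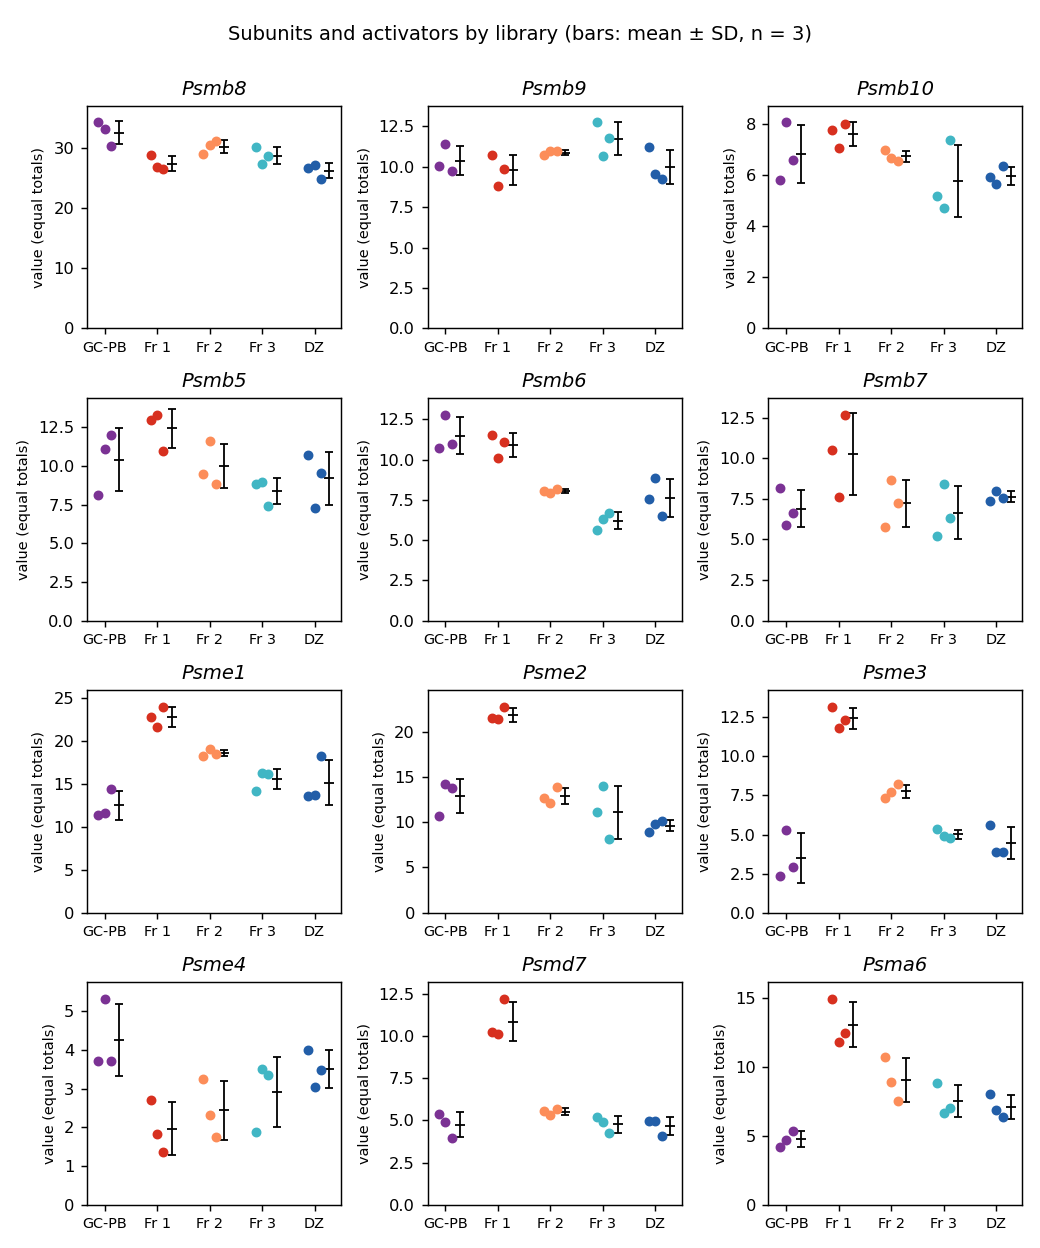
Values at equal totals in each library (points) with the group mean ± SD (bar, n = 3) for 12 genes, with groups along each horizontal axis. Psme2, Psme3, Psmd7 and Psma6 stand highest in Fraction 1, whereas Psmb8 keeps a mean of 26.2 to 32.6 in all groups and Psme4 is lowest in Fraction 1.

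The alpha ring of the 20S core gates entry to the chamber. In GC-PB against Fraction 1, 5 of 7 alpha-ring genes fell (71.4%, against 22.3% of all tested genes and 39.5% of those with a mean of at least 1) and 0 rose. With the libraries scaled by median ratios, only Psma4 and Psma6 of the 5 kept the call. Of the same 7, 4 rose in Fraction 1 against Fraction 2 (57.1%, against 3.79% and 8.5%) and 0 fell. Psma6 was at 4.19, 4.73 and 5.37 in GC-PB, 14.9, 11.8 and 12.4 in Fraction 1, 10.7, 8.88 and 7.55 in Fraction 2, 8.83, 6.66 and 7.04 in Fraction 3, and 8.01, 6.90 and 6.37 in DZ. GC-PB lay below every other library and Fraction 1 above. Psma6 fell in GC-PB against Fraction 1 (-1.29 ± 0.15, limma adjusted p = 6.73e-07) in every fit without 1 library. It rose in Fraction 1 against Fraction 2 (0.49 ± 0.15, limma adjusted p = 0.0469), a call that held only without Fraction 2 replicate 1 (0.38 to 0.61 over the 6 fits).

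In GC-PB against Fraction 1, Psma4 (-0.73), Psma5 (-0.61), Psma7 (-0.54) and Psma2 (-0.47) also fell. The call of Psma7 did not hold when Fraction 1 replicate 1 or GC-PB replicate 1 was left out (-0.76 to -0.34 over the 6 fits). In Fraction 1 against Fraction 2, Psma5 (0.58), Psma4 (0.58) and Psma2 (0.43) also rose. Psma2 lost that call in all 6 fits without 1 library (0.40 to 0.47). Psma4 kept it only without Fraction 2 replicate 2 or 3 (0.47 to 0.64), and Psma5 only without Fraction 2 replicate 3 or Fraction 1 replicate 3 (0.51 to 0.69). Psma1 was called in neither comparison, with changes of -0.16 and -0.12. Of the 7 constitutive beta-ring genes, 3 fell in GC-PB against Fraction 1 (42.9%, near the 39.5% of genes with a mean of at least 1). These were Psmb3 (-0.72), Psmb7 (-0.50) and Psmb2 (-0.49), and Psmb2 kept its call only without GC-PB replicate 2 (-0.58 to -0.41). Scaled by median ratios, Psmb3 alone of these was called lower. In Fraction 1 against Fraction 2, Psmb3 alone of the 7 was called (0.49 ± 0.13, limma adjusted p = 0.018). That call did not hold when Fraction 2 replicate 3 or Fraction 1 replicate 1 or 2 was left out (0.38 to 0.56). Psmb1 averaged 17.5 in GC-PB, 17.5 in Fraction 1 and 18.6 in Fraction 2, with log2 fold changes of -0.005 and -0.08 that were not called.

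In the 19S particle, 7 of 17 subunits fell in GC-PB against Fraction 1 and 0 rose. This is 41.2%, near the 39.5% of genes with a mean of at least 1 that were called lower. Only Psmd7 and Psmc5 of the 7 kept the call with median ratios. Of the 17, 2 rose in Fraction 1 against Fraction 2 (11.8%, against 8.5% of genes with a mean of at least 1) and 0 fell. Psmd7, a scaffold of the lid beside its deubiquitinase, was at 5.36, 4.93 and 3.92 in GC-PB, 10.2, 10.1 and 12.2 in Fraction 1, 5.54, 5.31 and 5.69 in Fraction 2, 5.21, 4.91 and 4.23 in Fraction 3, and 4.97, 4.97 and 4.05 in DZ. Every Fraction 1 library lay above all other libraries, and GC-PB overlapped with Fraction 2, Fraction 3 and DZ. Psmd7 fell in GC-PB against Fraction 1 (-1.05 ± 0.14, limma adjusted p = 4.87e-06) and rose in Fraction 1 against Fraction 2 (0.86 ± 0.14, limma adjusted p = 0.000572), both in every fit without 1 library. Psmd12, another lid subunit, was at 4.89, 5.12 and 4.54 in GC-PB, 6.82, 8.28 and 7.51 in Fraction 1, 3.85, 4.96 and 5.58 in Fraction 2, 4.20, 5.08 and 4.58 in Fraction 3, and 4.48, 5.25 and 4.48 in DZ. It too was highest in all Fraction 1 libraries. It fell in GC-PB against Fraction 1 (-0.54 ± 0.15, limma adjusted p = 0.00569) and rose in Fraction 1 against Fraction 2 (0.57 ± 0.15, limma adjusted p = 0.018). The rise was not called when Fraction 2 replicate 1 or Fraction 1 replicate 2 or 3 was left out (0.44 to 0.66).

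Other lid genes that fell in GC-PB against Fraction 1 were Psmd11 (-0.66) and the deubiquitinase Psmd14 (-0.53). Psmd11 was not called when Fraction 1 replicate 1 or 3 or GC-PB replicate 1 or 3 was left out (-0.999 to -0.30). Of the 6 ATPases, which unfold the substrate, Psmc5 (-1.01), Psmc4 (-0.49) and Psmc1 (-0.43) fell in that comparison. Psmc4 was not called when Fraction 1 replicate 1 or GC-PB replicate 1 was left out (-0.64 to -0.32), and Psmc1 also when Fraction 1 replicate 2 was left out (-0.55 to -0.25). No ATPase was called in Fraction 1 against Fraction 2, and the base subunits Psmd1, Psmd2 and the ubiquitin receptor Psmd4 were called in neither comparison (-0.43 to -0.25 in GC-PB against Fraction 1, and -0.06 to 0.13 in Fraction 1 against Fraction 2). Psmc1 was the 1 member called between Fraction 3 and DZ. It was at 5.36, 8.08 and 8.68 in GC-PB, 10.6, 10.9 and 8.99 in Fraction 1, 10.5, 8.53 and 8.75 in Fraction 2, 6.95, 4.73 and 6.34 in Fraction 3, and 9.93, 12.3 and 10.7 in DZ. Fraction 3 lay below Fraction 2 and DZ without overlap. It fell in Fraction 3 against DZ (-0.78 ± 0.16, limma adjusted p = 0.0191). That call held only without Fraction 3 replicate 1, with changes of -0.88 to -0.64 over the 6 fits.

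Of the 4 chaperones of core assembly, 3 fell in GC-PB against Fraction 1 and 2 rose in Fraction 1 against Fraction 2, where 39.5% and 8.5% of genes with a mean of at least 1 did so. Psmg1, which starts the alpha ring together with Psmg2, was at a mean of 1.10 ± 0.59 in GC-PB (SD, n = 3 each), 3.72 ± 0.41 in Fraction 1, 1.83 ± 0.44 in Fraction 2, 0.961 ± 0.40 in Fraction 3 and 0.823 ± 0.25 in DZ. These are low levels, with 3, 9 and 4 molecules in GC-PB and 30, 32 and 34 in Fraction 1. Psmg1 fell in GC-PB against Fraction 1 (-1.20 ± 0.22, limma adjusted p = 0.000193), as did Psmg3 (-1.19) and Psmg2 (-0.95), all in every fit without 1 library. Psmg1 (0.75) and Psmg3 (0.67) rose in Fraction 1 against Fraction 2, and both lost the call in each of the 6 fits without 1 library (0.61 to 0.82 for Psmg1 and 0.57 to 0.72 for Psmg3). Among the 19S chaperones, Psmd9 fell in GC-PB against Fraction 1 (-1.02 ± 0.25, limma adjusted p = 0.00216). It was listed at 0.466, 0 and 0.826 in GC-PB and at 1.29, 1.83 and 2.46 in Fraction 1. Psmd5 and Psmd10 were called in no comparison.

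Other genes of the pathway were taken from a list of 31, of which 28 were tested. In GC-PB against Fraction 1, 6 rose (21.4%) and 10 fell (35.7%), with a median of -0.12. These shares are near the 18% higher and 39.5% lower among genes with a mean of at least 1. Those that rose included the polyubiquitin gene Ubb (1.02), Vcp (0.77), the ATPase that extracts proteins from membranes, its cofactors Nploc4 (0.72) and Ufd1l (0.61), and Zfand5 (0.63). Those that fell included the proteasome-bound deubiquitinases Uchl5 (-1.75) and Usp14 (-0.89), the shuttle factor Ubqln1 (-1.34), the import receptor Ipo9 (-1.01), and Pomp, the maturation factor of the core (-0.66). Pomp was at 8.45 ± 1.9 in GC-PB, 13.7 ± 1.1 in Fraction 1, 10.6 ± 0.39 in Fraction 2, 8.92 ± 0.63 in Fraction 3 and 8.30 ± 0.50 in DZ. Shfm1 (-0.57) and the ubiquitin receptor Adrm1 (-0.48), both 19S subunits under other symbols, also fell, as did Rps27a (-0.59), a ubiquitin fusion gene, and Akirin2 (-0.62), which in human cells carries proteasomes into the nucleus with Ipo9.

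In Fraction 1 against Fraction 2, limma called 0 of the 28 higher and 0 lower, with 3 higher and 2 lower at an unadjusted p under 0.05. In Fraction 2 against Fraction 3 it called 1 higher (0.438% of all tested genes), Nfe2l1, the transcription factor of the proteasome bounce-back response. Nfe2l1 was at 1.62 ± 0.40 in Fraction 2 and 0.341 ± 0.32 in Fraction 3 (0.98 ± 0.21, limma adjusted p = 0.0351). Its Fraction 3 values were 0.145, 0.175 and 0.704, where 1 molecule was worth 0.145, 0.175 and 0.176. Whether this call held without single libraries is not reported here. Of 7 neighbours and regulators of the immunoproteasome, B2m, the light chain of MHC class I, was at 556 ± 121 in GC-PB and 69.6 ± 4.3 in Fraction 1 (2.96 ± 0.12, limma adjusted p = 1.05e-13). Tapbp, the chaperone that loads MHC class I, was at 13.2 ± 2.4 in GC-PB and 6.74 ± 0.65 in Fraction 1 (0.87 ± 0.15, limma adjusted p = 9.23e-05). Tap1, Tap2, Irf1 and Nlrc5 were not called in that comparison, and none of the 7 was called in the other 4 comparisons.

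Some values can include reads of another gene, since the strand used in counting is not given in the sources used here. Exons of 14 members overlap those of another gene, 12 of them with a gene on the other strand, among them Psmb9 with Tap1, Psmb8 with Gm20496, Psme1 with Emc9, Psmb7 with Nek6, Psma4 with AY074887 and Psma5 with 1700010K24Rik. Psmb5, Psmb6 and Psmb7 have annotated pseudogene copies and Psme2 has the copy Psme2b, so reads could also be split or shared there.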

How the data were processed

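Per the labels' protocols, the authors lysed 100 sorted cells per library, added an equal quantity of ERCC spike-in RNA per tube, tagged cDNA with molecular barcodes from an oligo-dT primer, and amplified it after template switching. TopHat2 (version not given) and mm10 are named per the submitters' processing notes. The deposited table holds a signal per gene and library, and its scaling is not given in the sources used here. Between 91.0% and 92.6% of values above 0 were whole multiples of 1 constant per library (tolerance 0.02 of it). This constant is read here as 1 molecule, which no label states.

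Each library was scaled so that its total without Rn45s equalled the median of the 15 totals (38594). Genes above 0 in at least 3 libraries (11190) were tested on log2(value + 1), so fold changes of low genes are understated. A single limma fit (version 3.58.1, R 4.3.3) with 5 group means and an intensity trend served all comparisons, and Benjamini-Hochberg adjustment ran over all tested genes at 0.05. Changes carry ± SE, levels ± SD. Alternatives were the deposited scale, median ratios, Rn45s in the total, pseudocounts of 0.5 and 2, 2 other filters, no trend, a replicate block, the 6 compared libraries alone and leaving out each library. A fit with voom weights on molecules was chosen after seeing the data.

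The members and gene lists were chosen with earlier results of these data known. Genes with values in every library are 9 fixed ones and, per comparison and direction, the 3 called members with the smallest p. Others are named if called, or as the extremes of their role, a few genes of the pathway lists are not reported here, and the molecules of Psme3 and Psmg1 and the library values of Psmd9 were added after their values were seen. Positions came from GENCODE on mm10, sequences and motifs from RefSeq (GRCm38.p6), and intervals cover the spread between libraries. On simulated data for Fraction 1 against Fraction 2 (10843 genes), the fit recovered 42% of genes changed by 2 fold and 95% of those changed by 4 fold, with 0% false calls. For GC-PB against Fraction 1 (10875 genes) it recovered 41% and 89%, and 7.14% of its calls were false, above the nominal 5%. Each simulation changed 100 genes by each fold, all drawn from the better expressed genes. It used an assumed spread and otherwise the same mean profile in all groups. These shares may not hold for the data, where far more genes were called, or for low genes. Figures were drawn with matplotlib 3.10.9 in Python 3.11.15.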

Additional observations from a re-analysis of the deposited data

How the results depend on the processing

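The number of members called moved with the scale. As deposited it was 44 in GC-PB against Fraction 1, 46 in Fraction 1 against Fraction 2, 7 in Fraction 2 against Fraction 3, 5 in Fraction 2 against DZ and 0 in Fraction 3 against DZ. In Fraction 2 against DZ it was also 0 with median ratios, with no filter beyond 1 library above 0, without the intensity trend and with the replicate block. In Fraction 3 against DZ it was also 0 with only the 6 libraries compared. Without 1 library at a time, the count ran from 17 to 25 in GC-PB against Fraction 1, from 2 to 5 in Fraction 1 against Fraction 2, and from 0 to 1 in both comparisons with DZ, and stayed at 0 in Fraction 2 against Fraction 3.

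Of the 22 members lower in GC-PB, 12 kept their call with median ratios, 22 as deposited and 16 without any 1 library. In GC-PB against Fraction 1, log2 changes turned sign for 4 of the 48 members as deposited and for 12 with median ratios. Among the genes named with values, they turned as deposited for Psmb8 (-0.44), Psmb9 (-0.58) and Psmb6 (-0.60), with median ratios for Psmb10 (0.11) and Psmb5 (0.025), and for Psmb6 with Rn45s in the total (-0.004) or without GC-PB replicate 2 (-0.007). In Fraction 1 against Fraction 2 they turned for 11 members as deposited, so that all 48 were above 0, among them Psmb8 (1.29), Psmb9 (1.23) and Psmc3ip (0.48), and for 3 with median ratios. Apart from the scales, the cause was not tested.

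Libraries with the same number did not deviate together (correlations of -0.045 to 0.053 over 5509 genes in 15 pairs). Such correlations cannot show that these libraries were unpaired, since the noise of few molecules could hide a shared animal or sort. With the replicate block the counts were 24, 10, 0, 0 and 1 in the 5 comparisons, in the order above. The block lost the calls of Psmb8 and Psmc1 and gained Psmb11 and Psmd4 in GC-PB against Fraction 1, and lost Psme3 in Fraction 1 against Fraction 2 and in Fraction 2 against DZ. Low genes such as Psmg1 and Psmd9 rest on few molecules, which limits them to large differences.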

Other observations

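Psmb11, the catalytic subunit of the thymoproteasome, which is known from cortical thymic epithelium, was listed at 10.8, 2.00 and 1.51 in GC-PB, 1.29, 0.932 and 1.77 in Fraction 1, 2.23, 1.29 and 1.37 in Fraction 2, 1.94, 1.03 and 1.12 in Fraction 3, and 1.59, 1.87 and 3.20 in DZ. GC-PB replicate 1 stood apart from all other libraries. Its values were not whole molecules in 14 of the 15 libraries. Its change in GC-PB against Fraction 1 was 0.95 ± 0.38 (limma adjusted p = 0.0577), and it was called with median ratios (1.19), the stricter filter (0.95), the replicate block (0.95) and voom weights (1.26). Psmc3ip, which matched by symbol only, was at a mean of 0.705 in GC-PB, 0.743 in Fraction 1, 1.15 in Fraction 2, 1.34 in Fraction 3 and 0.916 in DZ and was called in no comparison.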
